A study of Mus musculus with 16 samples.

Results

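The 6 genes described here, Zscan4c, Zscan4d, Zscan4f, Zfp352, Tcstv1 and Tcstv3, are transcribed in the mouse embryo at the 2-cell stage and mark the 2-cell-like state of cultured stem cells. They were chosen by name, and all 6 were found among the 41258 entries of the deposited table of gene expression. Mouse embryonic stem cells (strain label 129/C57BL/6, passages 9 to 11) were grown in 2iL, the medium with inhibitors of MEK and GSK3 plus LIF that holds naive pluripotency, or were differentiated for 48 h in N2B27 with bFGF and KSR. The wild-type cells (WT, named v65 in the column names) and the Dgcr8-/- cells (ES1) were 1 line per genotype. Each of the 4 groups held 2 libraries, called biological replicates in the series design. No source used here says what separated them, so p-values measure only the spread between these libraries. A difference between genotypes therefore cannot be told apart from a difference between lines. No transgene, reporter or drug other than the media was named for these groups.

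In the embryo, this set of genes is switched on when the zygotic genome first becomes active. In stem cell cultures a small and changing minority of cells enters a similar state, with transcription of the Zscan4 cluster, of MERVL endogenous retroviruses and of genes driven by retroviral promoters. The transcription factor Dux opens the programme, Dppa2 and Dppa4 act upstream of Dux, and chromatin repressors such as Kdm1a, Trim28, Setdb1 and the CAF-1 subunits hold it down. Dgcr8 is the RNA-binding partner of Drosha and is required for most miRNAs.

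Zscan4 genes encode proteins with a SCAN domain and zinc fingers, known for telomere lengthening and genome stability in stem cells. RefSeq lists 9 Zscan4 entries on chromosome 7 (build GRCm38.p6, the same primary sequence as mm10), 4 of them protein-coding and 5 pseudogenes, within 820 kb. Zscan4c lies at chr7:11005745-11010547, Zscan4d at chr7:11161643-11166148 and Zscan4f at chr7:11397915-11402318. Tcstv1 (chr13:119893387-119894785) and Tcstv3 (chr13:120316862-120318261) are a pair of related 2-cell-stage genes on chromosome 13, and Zfp352 (chr4:90218820-90225687) is a zinc-finger gene on chromosome 4. The RefSeq table of promoter windows matched 4 of the 6 genes. The 250 bases before the transcript start of the 3 Zscan4 genes are shown because they make visible how alike the copies are there. The transcripts were not compared, and their likeness would bear on the Zscan4 values below. Capitals mark TGATTCAA, the first 8 letters of the Dux motif, and TATAAA, the letters of a TATA box. The windows are chr7:11005495-11005744 (plus strand) for Zscan4c, chr7:11166149-11166398 (minus strand) for Zscan4d and chr7:11397665-11397914 (plus strand) for Zscan4f.
Zscan4c: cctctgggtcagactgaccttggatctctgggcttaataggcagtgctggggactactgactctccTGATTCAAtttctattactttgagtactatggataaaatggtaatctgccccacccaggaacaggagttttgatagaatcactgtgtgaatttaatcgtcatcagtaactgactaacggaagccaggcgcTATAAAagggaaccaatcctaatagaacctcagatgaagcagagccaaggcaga
Zscan4d: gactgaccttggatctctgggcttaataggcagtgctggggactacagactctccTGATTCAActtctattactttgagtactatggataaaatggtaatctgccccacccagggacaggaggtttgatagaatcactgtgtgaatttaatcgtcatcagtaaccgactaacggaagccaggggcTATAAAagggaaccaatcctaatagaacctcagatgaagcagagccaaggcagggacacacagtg
Zscan4f: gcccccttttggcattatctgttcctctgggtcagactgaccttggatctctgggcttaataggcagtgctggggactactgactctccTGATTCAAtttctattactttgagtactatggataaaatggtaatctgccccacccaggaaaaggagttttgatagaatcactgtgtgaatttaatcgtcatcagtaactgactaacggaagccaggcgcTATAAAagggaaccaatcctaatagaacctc
Over windows of 300 bases, which add the first 50 transcribed bases, Zscan4c and Zscan4f were identical at 275 of 277 aligned positions (99.3%), Zscan4c and Zscan4d at 280 of 287 (97.6%) and Zscan4d and Zscan4f at 259 of 266 (97.4%). Each of the 3 windows held TGATTCAA 1 time, a match found on either strand in 0.581% of the 32851 windows, and TATAAA 1 time, found in 13.6%. The window of Zscan4b, the other protein-coding copy, held TATAAA but not TGATTCAA. It was identical to that of Zscan4f at 287 of 300 aligned positions (95.7%). The whole Dux motif, searched by its 11 letters, was in none of the member windows and in 0.00913% of all windows. A match of letters describes the sequence and shows no binding.

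The window of Zfp352 is shown because it is built differently. Capitals mark TAATCC, the letters bound by homeodomain proteins such as Otx2 and Crx. This motif was chosen after the sequence had been seen. The window is chr4:90218570-90218819 (plus strand).
Zfp352: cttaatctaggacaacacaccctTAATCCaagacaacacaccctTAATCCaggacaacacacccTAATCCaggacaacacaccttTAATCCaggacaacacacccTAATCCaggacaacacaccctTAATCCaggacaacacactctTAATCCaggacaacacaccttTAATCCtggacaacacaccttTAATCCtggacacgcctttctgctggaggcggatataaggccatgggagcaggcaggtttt
It held TAATCC 9 times, with successive copies 20 or 21 bases apart. TAATCC was found on either strand in 7.06% of the 32851 windows, and the next highest number in any window was 4. Neither TGATTCAA nor TATAAA was in the Zfp352 window.

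**Figure D1:**
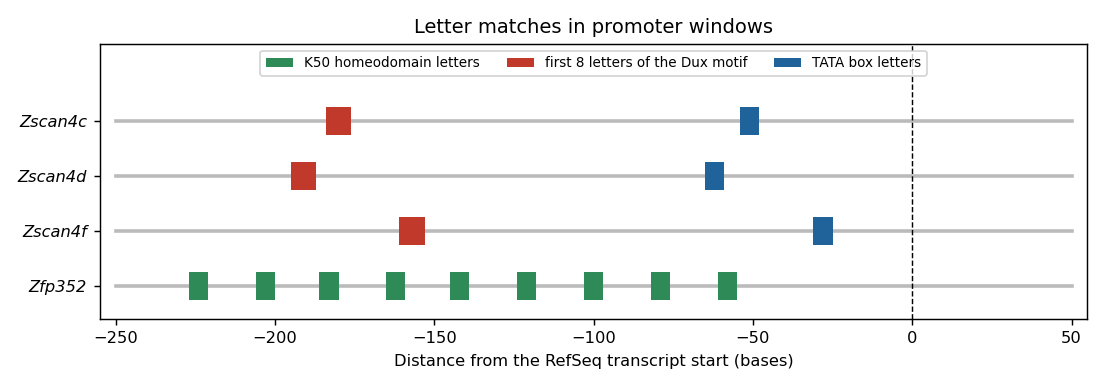
Letter matches in the promoter windows of the 4 matched genes, by distance in bases from the RefSeq transcript start (dashed line); boxes mark matches and grey lines the 300-base windows. The 3 Zscan4 windows share 1 TGATTCAA and 1 TATAAA match at a common spacing, and Zfp352 has 9 evenly spaced TAATCC matches.

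Expression was measured as FPKM (fragments scaled to transcript length and to mapped fragments). Absolute read numbers are unknown. The steps between low values gave relative depths from 1 to 1.48, and from 1 to 1.11 among the 4 libraries in 2iL. In 2iL the targeted gene, Dgcr8, measured 18.3 and 19.2 FPKM in WT libraries and 9.11 and 9.33 in Dgcr8-/- libraries. After 48 h the values were 20.7 and 20.9 against 7.84 and 7.80, so a transcript signal remained. FPKM per gene does not show which exons it comes from. All 8 listed pluripotent stem cell markers were above 0 in every group. Prdm14 was near the floor in WT at 48 h, at 0.0206 and 0.0170 FPKM. The summed level of the 8 was 1711 to 1746 FPKM in WT and 1950 to 2032 in Dgcr8-/- cells in 2iL. At 48 h it was 758 to 800.3 and 1224 to 1296. Pou5f1 was the largest part of this sum in every group. Its means were 912 FPKM in WT and 980 in Dgcr8-/- cells in 2iL, and 716 and 847 at 48 h. At 48 h all 8 markers were higher in both Dgcr8-/- libraries than in both WT libraries, against 32.2% of all genes above 0. Their median ratio at 48 h was 9.12, beside 0.924 over all genes, and in 2iL it was 1.22. Nanog, a core factor of naive pluripotency, had a mean of 5.35 FPKM in WT and 56.4 in Dgcr8-/- cells at 48 h, and Esrrb one of 4.85 against 49.6. The genotype comparison of the 6 genes at 48 h thus sets side by side cells that also differed in these markers, whose part in it was not tested.

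All 6 genes were higher in Dgcr8-/- than in WT cells, in 2iL and at 48 h, and in 2iL the difference was close to 10-fold for 4 of them and 12.0-fold for Zfp352. Zscan4c was listed at 0.332 and 0.350 FPKM in WT and at 3.62 and 3.33 in Dgcr8-/- cells in 2iL, a ratio of means of 10.2. Zscan4d was listed at 0.427 and 0.680 FPKM in WT and 5.95 in both Dgcr8-/- libraries (10.8-fold). Zscan4f was listed at 0.776 and 0.439 FPKM in WT and at 5.70 and 6.81 in Dgcr8-/- cells (10.3-fold). For each of these genes the lowest Dgcr8-/- library was far above the highest WT library. In bulk RNA, more cells in the 2-cell-like state and more RNA per such cell cannot be told apart.

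**Figure D2:**
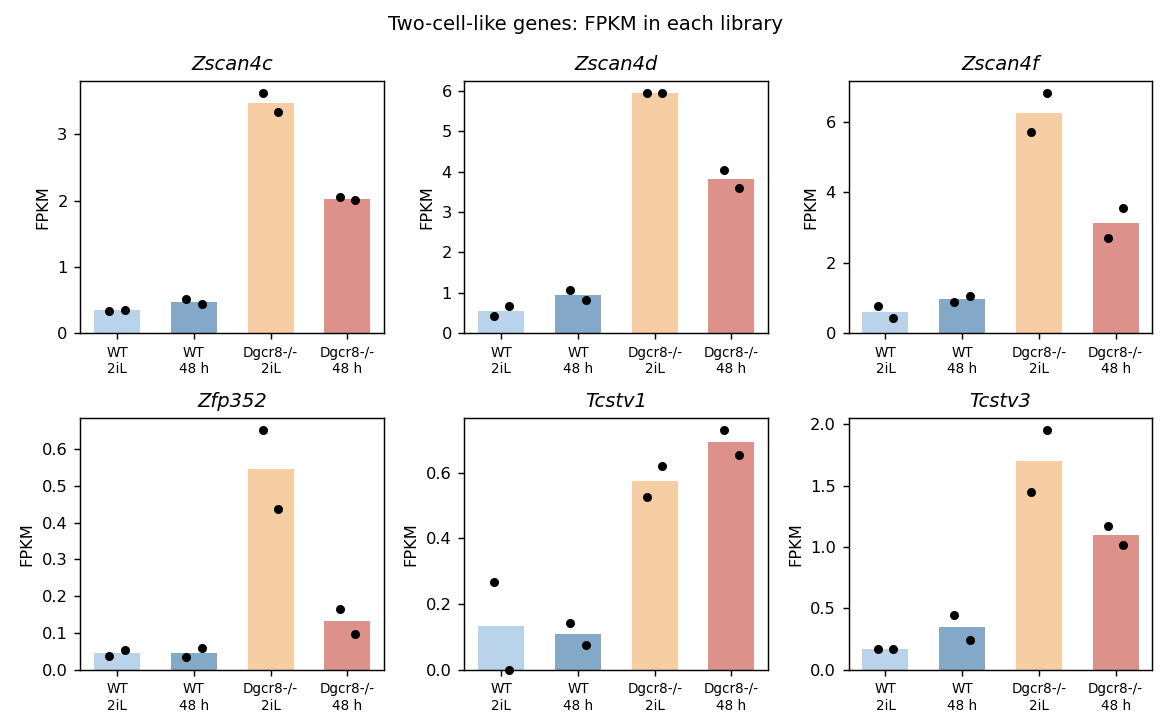
FPKM of each of the 6 genes in the 8 libraries; points are libraries, bars are group means (n = 2), and each panel has its own axis from 0. Both Dgcr8-/- points lie above both WT points in each condition for each gene.

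The 2 Tcstv genes and Zfp352 were lower in level. Tcstv3 was listed at 0.165 and 0.173 FPKM in WT and at 1.45 and 1.96 in Dgcr8-/- cells in 2iL (10.1-fold). Zfp352 was listed at 0.0367 and 0.0544 FPKM in WT and at 0.652 and 0.437 in Dgcr8-/- cells. Tcstv1 was listed at 0.266 and 0 FPKM in WT, where it varied most between libraries, and at 0.527 and 0.620 in Dgcr8-/- cells. Such values rest on few fragments. Divided by the relative value of 1 fragment in each library, Tcstv3 came to 1.01, 1, 3.01 and 2 times its lowest value in the WT libraries and to 7.96, 12, 7.95 and 6.93 times in the Dgcr8-/- libraries, near whole steps throughout. On the same scale Zfp352 stood at 1, 1.41, 1 and 2.11 in WT, 16.1 and 12 in Dgcr8-/- cells in 2iL, and 5 and 3 in Dgcr8-/- cells at 48 h. Tcstv1 stood at 2.71, 0, 1.58 and 1 in the WT libraries and at 4.83, 6.33, 8.23 and 7.44 in the Dgcr8-/- libraries. Several of its values, and that of Zfp352 in WT 2iL replicate 2, were not near whole steps.

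The differences were fitted with limma on log2(FPKM + 1), a scale that understates the change of low genes. Of the 6 genes, 4 reached 1 FPKM in 2 or more libraries and were tested among 13172 genes. They passed through the Dgcr8-/- libraries, so their count is given as a description. In 2iL all 4 were called higher in Dgcr8-/- cells, where 30.6% of the genes tested were called higher. The fitted log2 differences were 1.74 for Zscan4c (SE 0.09, limma adjusted p = 5.5e-06), 2.17 for Zscan4d (SE 0.12, limma adjusted p = 6.7e-06), 2.18 for Zscan4f (SE 0.15, limma adjusted p = 2.1e-05) and 1.20 for Tcstv3 (SE 0.13, limma adjusted p = 1.6e-04). Their median was 1.95, beside −0.02 over all genes tested. With a pseudocount of 0.1 these differences were larger, 3.02, 3.24, 3.20 and 2.73. By size of the difference, Zscan4f and Zscan4d ranked 176 and 178 among the 13172 genes.

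Zfp352 and Tcstv1 did not pass the filter and were tested in a fit without one, over 23014 genes. All 6 genes were called higher in Dgcr8-/- cells in 2iL in that fit, where 19.4% of genes were. The log2 difference was 0.56 for Zfp352 (SE 0.07, limma adjusted p = 0.0018) and 0.48 for Tcstv1 (SE 0.12, limma adjusted p = 0.021). Both Dgcr8-/- libraries were above both WT libraries for all 6 genes, against 31.1% of the 23014 genes. The Tcstv1 call was lost when either Dgcr8-/- 2iL library or any 48 h library was left out (adjusted p up to 0.111) and with a pseudocount of 0.1 (adjusted p = 0.063), and its difference fell to 0.31 without WT 2iL replicate 2, the library listed at 0.

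At 48 h the genotypes still stood apart, by a smaller ratio than in 2iL for 5 of the 6 genes. Zscan4c was listed at 0.510 and 0.440 FPKM in WT and 2.05 and 2.01 in Dgcr8-/- cells (4.27-fold), Zscan4d at 1.08 and 0.827 against 4.04 and 3.61 (4.01-fold), and Zscan4f at 0.890 and 1.04 against 2.68 and 3.54 (3.22-fold). Tcstv3 was listed at 0.449 and 0.246 FPKM against 1.18 and 1.02 (3.16-fold), and Zfp352 at 0.0333 and 0.0581 against 0.165 and 0.0983 (2.88-fold). Tcstv1 was listed at 0.142 and 0.0738 FPKM against 0.730 and 0.655 (6.43-fold). Its ratio in 2iL, 4.30, rests on 1 WT library at 0.266 and 1 at 0, so the 2 ratios are not ranked here.

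The 4 genes that passed the filter were all called higher in Dgcr8-/- cells at 48 h, where 33.3% of the genes tested were. Here too the count is a description, since they passed through the Dgcr8-/- libraries. The log2 differences were 1.04 for Zscan4c (limma adjusted p = 3.1e-05), 1.31 for Zscan4d (adjusted p = 4.0e-05), 1.06 for Zscan4f (adjusted p = 5.3e-04) and 0.64 for Tcstv3 (adjusted p = 0.0030). In the fit without a filter, where 21.7% of genes were called higher, 5 of the 6 were called. Tcstv1 was called (0.61, SE 0.12, limma adjusted p = 0.0069) and Zfp352 was not (0.11, SE 0.07, limma adjusted p = 0.26). Without WT 48 h replicate 2 or Dgcr8-/- 48 h replicate 1 the Tcstv1 call was lost (adjusted p = 0.056 and 0.052).

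Leaving 2iL lowered most of these genes in Dgcr8-/- cells. Between 2iL and 48 h the mean of Zscan4c fell 1.71-fold, that of Zscan4d 1.56-fold and that of Zscan4f 2.01-fold. The fitted log2 changes were −0.56 (SE 0.09, limma adjusted p = 0.0016), −0.53 (SE 0.12, limma adjusted p = 0.0076) and −0.82 (SE 0.15, limma adjusted p = 0.0037), in a comparison in which 21.8% of the genes tested were called lower. Tcstv3, with a log2 change of −0.36, narrowly missed the threshold (limma adjusted p = 0.052) and passed it under 4 of 14 alternative settings. Zfp352 had the steepest fall, 4.13-fold in mean FPKM, with a log2 change of −0.45 in the fit without a filter (SE 0.07, limma adjusted p = 0.0065, 12.8% of genes called lower). That call was lost without Dgcr8-/- 48 h replicate 2 (adjusted p = 0.051). Tcstv1 alone had a higher mean at 48 h than in 2iL, and the change of 0.11 was not called (limma adjusted p = 0.57).

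In WT cells the same genes stayed low and none had a change that was called under most settings. In ratio of means, 48 h over 2iL, Zscan4c rose 1.39-fold, Zscan4d 1.72-fold, Zscan4f 1.59-fold and Tcstv3 2.05-fold. These rises started from means below 1 FPKM. Zfp352 stood at 1.00 and Tcstv1 at 0.809 times the 2iL mean. Zscan4d was the only member called, with a log2 change of 0.33 (SE 0.12, limma adjusted p = 0.043, 30.9% of the genes tested called higher). The call was lost under 10 of 14 alternative settings, among them leaving out WT 2iL replicate 1 (adjusted p = 0.207), WT 48 h replicate 1 (adjusted p = 0.21) or any Dgcr8-/- library (adjusted p from 0.056 to 0.061), and the fit with the replicate number as a block (adjusted p = 0.062). Without WT 2iL replicate 1 its change was 0.21. Zscan4c (0.14), Zscan4f (0.30), Tcstv3 (0.20), Zfp352 (0.00) and Tcstv1 (−0.02) were not called.

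The order of the groups was the same for Zscan4c, Zscan4d, Zscan4f and Tcstv3: highest in Dgcr8-/- cells in 2iL, then Dgcr8-/- cells at 48 h, then WT cells at 48 h, then WT cells in 2iL. The step between the WT groups did not pass the test for Zscan4c, Zscan4f and Tcstv3, nor did the step between the Dgcr8-/- groups for Tcstv3. The 48 h change differed between genotypes for each of the 4, with interaction terms of −0.70 for Zscan4c (SE 0.12, limma adjusted p = 0.0035), −0.86 for Zscan4d (SE 0.16, limma adjusted p = 0.0050), −1.12 for Zscan4f (SE 0.22, limma adjusted p = 0.0053) and −0.56 for Tcstv3 (SE 0.18, limma adjusted p = 0.042). In this comparison 21.7% of the genes tested were called negative. The terms of the 3 Zscan4 genes were called in all 14 alternatives. That of Tcstv3 was lost without WT 2iL replicate 1 or 2 (adjusted p = 0.096 and 0.091), WT 48 h replicate 1 (0.125), Dgcr8-/- 2iL replicate 2 (0.103) or Dgcr8-/- 48 h replicate 1 or 2 (0.067 and 0.116), under the replicate block (adjusted p = 0.063), and in the fit without a filter (adjusted p = 0.066). In the fit without a filter, Zfp352 had a term of −0.45 (limma adjusted p = 0.025, 13.8% of genes called negative), lost on leaving out any library other than the 2 of Dgcr8-/- cells in 2iL (adjusted p up to 0.096), and Tcstv1 one of 0.13 (adjusted p = 0.62), which ranged from −0.04 to 0.30 when 1 library was left out.

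**Figure D3:**
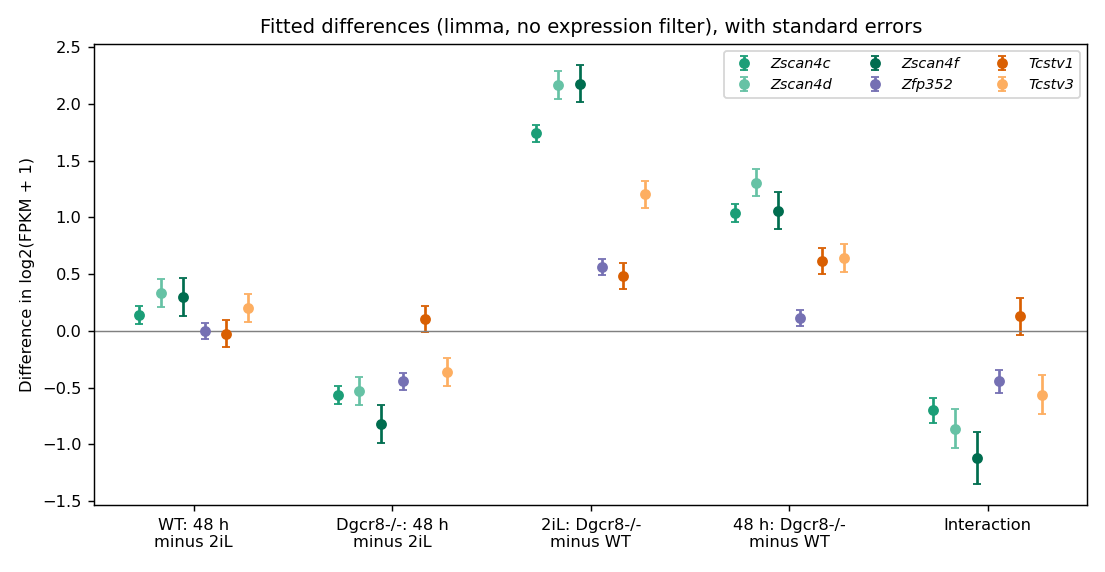
Differences in log2(FPKM + 1) for the 6 genes in the 5 comparisons, from the limma fit without an expression filter; bars are standard errors and the interaction is the Dgcr8-/- change minus the WT change. The Zscan4 genes lie highest between genotypes in 2iL (1.74 to 2.18) and lowest in the interaction (−0.70 to −1.12).

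How the signal was divided among the Zscan4 copies varied between libraries, and their sum varied less. The ratio of Zscan4f to Zscan4d was 1.82 and 0.645 in the WT libraries in 2iL, 0.826 and 1.26 in WT at 48 h, 0.957 and 1.14 in Dgcr8-/- cells in 2iL, and 0.665 and 0.982 in Dgcr8-/- cells at 48 h. Zscan4c held 19.0% to 23.8% of the sum in every library. Summed over the 3 genes, the level was 1.53 and 1.47 FPKM in WT cells in 2iL, a mean of 1.501 ± 0.0469 (SD, n = 2), and 2.48 and 2.31 (2.39 ± 0.117) at 48 h. In Dgcr8-/- cells grown in 2iL the sum was 15.3 and 16.1 FPKM (15.7 ± 0.577), and after 48 h it was 8.77 and 9.16 FPKM (8.96 ± 0.274). The genotypes thus stood 10.4-fold apart in 2iL and 3.74-fold apart at 48 h. Between 2iL and 48 h the sum rose 1.59-fold in WT cells and fell 1.75-fold in Dgcr8-/- cells. The promoter windows of the 3 genes were near-identical, and their transcript sequences were not compared. The 3 rows possibly share reads and are not taken as 3 independent measurements. No source used here says how reads with several matches were assigned.

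Other rows of the family lay in the same order of genotypes. Zscan4b, the remaining protein-coding copy, was listed at 0.138 and 0.0362 FPKM in WT and 1.07 and 0.821 in Dgcr8-/- cells in 2iL, and Zscan4e, a pseudogene in RefSeq, at 0.311 and 0.255 against 2.18 and 3.51.

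A wider list of 35 genes reported in the 2-cell-like state, written from general knowledge of the field with earlier results of these data known, had 29 genes in the table. It includes Usp17l deubiquitinase genes, Tdpoz genes and predicted genes, several of them near-identical copies. In 2iL, 27 of the 28 genes above 0 were higher in both Dgcr8-/- libraries than in both WT libraries, against 31.1% of all genes above 0. The exception, Tdpoz1, had libraries that overlapped, and Tdpoz5 was listed at 0 throughout. The median ratio of means was 10.2, beside 0.983 over all genes with a WT value above 0. In the fit without a filter 26 of the 28 were called higher and none lower, against 19.4% of genes called higher and 18.2% called lower. The tested genes with the largest differences were Gm5039 at 0.429 and 1.12 FPKM in WT and 9.83 and 10.8 in Dgcr8-/- cells (log2 2.70, limma adjusted p = 6.0e-05), Gm20767 (1.70, adjusted p = 1.8e-04), Gm5662 (1.69, adjusted p = 1.4e-05) and Zscan4e (1.56, adjusted p = 1.2e-04). They were named by the size of this same difference, so their p-values are given as a description. Of them Gm20767, Gm5662 and Zscan4e reached 1 FPKM only in Dgcr8-/- libraries.

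At 48 h 27 of the 28 again lay higher in both Dgcr8-/- libraries, with a median ratio of 3.50, beside 32.2% of genes and 0.924 over all genes. In the fit without a filter 20 of the 28 were called higher and none lower, against 21.7% of genes called higher and 24.8% called lower. Arg2 (arginase) was the exception, at 0.512 and 0.553 FPKM in WT and 0.313 and 0.503 in Dgcr8-/- cells. Between 2iL and 48 h in Dgcr8-/- cells, 19 of the 28 were called lower and none higher in the fit without a filter, against 12.8% of genes called lower and 16.6% called higher. In WT cells 1 of the 28 was called higher and none lower, against 21% and 14.4% of genes in that fit.

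**Figure D4:**
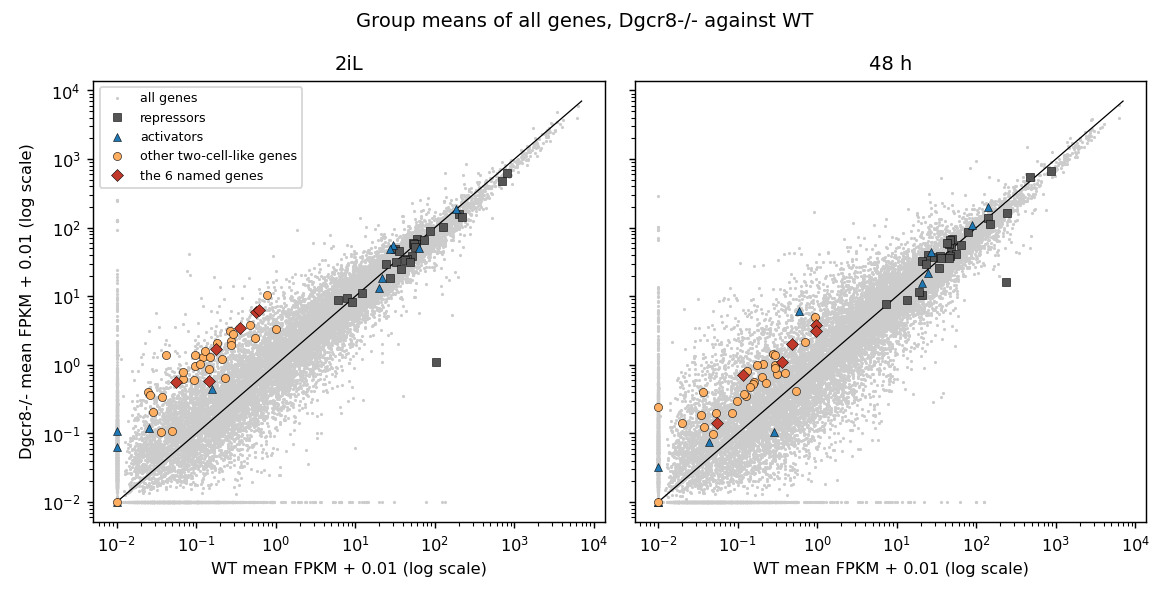
Mean FPKM + 0.01 of Dgcr8-/- against WT cells for all genes in 2iL (left) and at 48 h (right), both axes logarithmic; the line marks equal levels, red diamonds the 6 genes, orange circles other 2-cell-like genes, blue triangles activators and grey squares repressors of the programme. All red and nearly all orange points lie above the line in 2iL, and most lie closer to it at 48 h (not Tcstv1, Tdpoz1, Tdpoz3, Tdpoz4 and Spz1, while Tdpoz5, at 0, is on the line), and the repressor far below the line is Lin28a.

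Known activators of the programme were called in both directions. Duxf3, the Dux gene of the table and named after its values were seen, was listed at 0 and 0.0310 FPKM in WT and at 0.130 and 0.0878 in Dgcr8-/- cells in 2iL, and at 0 and 0.0661 against 0.0530 and 0.0788 at 48 h, too low to pass the filter. Of 11 listed activators 6 passed, and in 2iL 2 were called higher and 3 lower in Dgcr8-/- cells, where 30.6% and 32.8% of all genes tested were. So small a count does not set the list apart from all genes. Dppa3, a maternal factor that guards DNA methylation, was at 32.8 and 27.3 FPKM in WT and 53.2 and 60.3 in Dgcr8-/- cells (log2 0.90, limma adjusted p = 1.3e-04). Dppa2 was also higher (0.79, adjusted p = 3.4e-05), while its partner Dppa4 (−0.34, adjusted p = 3.6e-04) and the nuclear receptor Nr5a2 (−0.53, adjusted p = 6.8e-04) were lower. At 48 h Dppa3 was lower in Dgcr8-/- cells (−0.40, adjusted p = 0.0065) and Nr5a2 higher (2.16, adjusted p = 5.7e-07).

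Among 27 listed repressors, all of which passed, 13 were called lower and 7 higher in Dgcr8-/- cells in 2iL. Of all genes tested, 32.8% were called lower and 30.6% higher. The median log2 difference of the repressors was −0.14, beside −0.02 for all genes. The RNA-binding protein gene Lin28a differed most, at 110.0 and 99.6 FPKM in WT and 1.05 and 1.15 in Dgcr8-/- cells (log2 −5.65, limma adjusted p = 2.5e-08). The H3K9 methyltransferase gene Setdb1 was higher (0.60, adjusted p = 7.1e-05), and Uhrf1 (−0.59, adjusted p = 3.3e-05), which guides maintenance methylation, and the histone chaperone gene Daxx (−0.59, adjusted p = 0.0012) were lower. At 48 h 12 repressors were called lower and 10 higher, shares near those of all genes tested (38.5% and 33.3%). Lin28a then stood at 237 and 232 FPKM in WT and 17.0 and 15.6 in Dgcr8-/- cells.

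Telomere and recombination genes, listed because Zscan4 is known for telomere lengthening, gave 4 higher and 5 lower of 13 tested in 2iL, shares near those of all genes tested (30.6% and 32.8%), and 2 higher and 8 lower at 48 h (33.3% and 38.5% of all genes). The meiotic cohesin gene Smc1b differed by as much as the members, at 0.224 and 0.163 FPKM in WT and 1.84 and 2.36 in Dgcr8-/- cells (10.8-fold, log2 1.37, limma adjusted p = 8.0e-05), but was called higher rather than lower at 48 h in Dgcr8-/- cells (0.48, adjusted p = 0.018). The telomerase RNA gene Terc was higher (0.66, adjusted p = 0.019), and the shelterin genes Acd (−1.21, adjusted p = 5.8e-06) and Tinf2 (−0.81, adjusted p = 7.9e-05) were lower. Smc1b and Terc reached 1 FPKM only in Dgcr8-/- libraries.

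Markers of other cell types and states were summed beside these differences. The 8 epiblast-like markers, genes of the state that follows naive pluripotency, came to 168 to 180 FPKM in WT and 121 to 126 in Dgcr8-/- cells in 2iL, and to 987 to 1007 against 355 to 362 at 48 h. Most of the 48 h sum was Dnmt3b and Dnmt3a, and the median ratio over the list was 0.345. Otx2 (26.8 against 39.6 FPKM) and Foxd3 (8.18 against 9.12) had higher means in Dgcr8-/- cells at 48 h. The 8 primitive endoderm markers came to 4.85 to 5.24 FPKM against 4.37 to 4.43 in 2iL and to 2.93 to 3.51 against 2.42 to 2.55 at 48 h, with none at 0 in both libraries of a group. At 48 h the WT sum was mostly Dab2, with a mean of 1.97 FPKM in WT and 0.286 in Dgcr8-/- cells. The median ratio over that list at 48 h was 1.78. The 10 fibroblast and feeder markers came to 2.94 to 3.16 FPKM against 2.29 to 2.35 in 2iL and to 22.9 to 23.8 against 19.1 to 19.2 at 48 h. Of these, Acta2, Dcn and Postn were at 0 in WT and Acta2 and Postn in Dgcr8-/- cells in 2iL, and Postn in WT and Acta2 and Col1a2 in Dgcr8-/- cells at 48 h. The fibroblast and feeder sums at 48 h were made up differently. Tagln had a mean of 9.20 FPKM in WT and 0.915 in Dgcr8-/- cells, Acta2 2.25 against 0, and Dcn 1.98 against 12.2. The median ratio over that list at 48 h was 0.606. The 8 trophectoderm markers came to 28.0 to 28.4 FPKM against 37.3 to 40.2 in 2iL and to 32.3 to 32.5 against about 36.2 at 48 h, where Elf5 was at 0 in both Dgcr8-/- libraries. In 2iL that sum was mostly Tfap2c, with a mean of 18.6 FPKM in WT and 29.9 in Dgcr8-/- cells, while the median ratio over the list was 0.688. The sums of all 4 lists, and that of the pluripotent markers, separated the genotypes without overlap in both conditions, and their part in the results was not tested.

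The genes whose profile over the 8 libraries was most like the Zscan4 sum were found by Pearson correlation on log2(FPKM + 1) among 6053 genes with a range of at least 1. The first 10 were Man2a1, a Golgi mannosidase (r = 0.998), Parp10, an ADP-ribosyltransferase, Smyd2, a lysine methyltransferase, Tmem87b, Kmt2e, Prkch, a protein kinase C, Scaper, Cd164l2, Rhox6, an X-linked homeobox gene, and Pja2, a ubiquitin ligase (r = 0.994). The libraries come in 4 groups, so any gene with the same order and spacing of group means scores highly. The sizes differed: Prkch was listed at 0.0321 and 0.0848 FPKM in WT and 3.82 and 3.97 in Dgcr8-/- cells in 2iL, Parp10 at 0.611 and 0.490 against 8.09 and 8.29 (14.9-fold), and Rhox6 at 1.44 and 1.51 against 14.7 and 18.7 (11.3-fold), while Kmt2e differed 2.18-fold. None of the 10 was on the lists above. The closest listed genes were the deubiquitinase gene Usp17le (r = 0.992, rank 16) and Gm12794 (r = 0.990, rank 19). Tcstv3 correlated with the Zscan4 sum at 0.985, Tcstv1 at 0.873 and Zfp352 at 0.833.

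**Figure D5:**
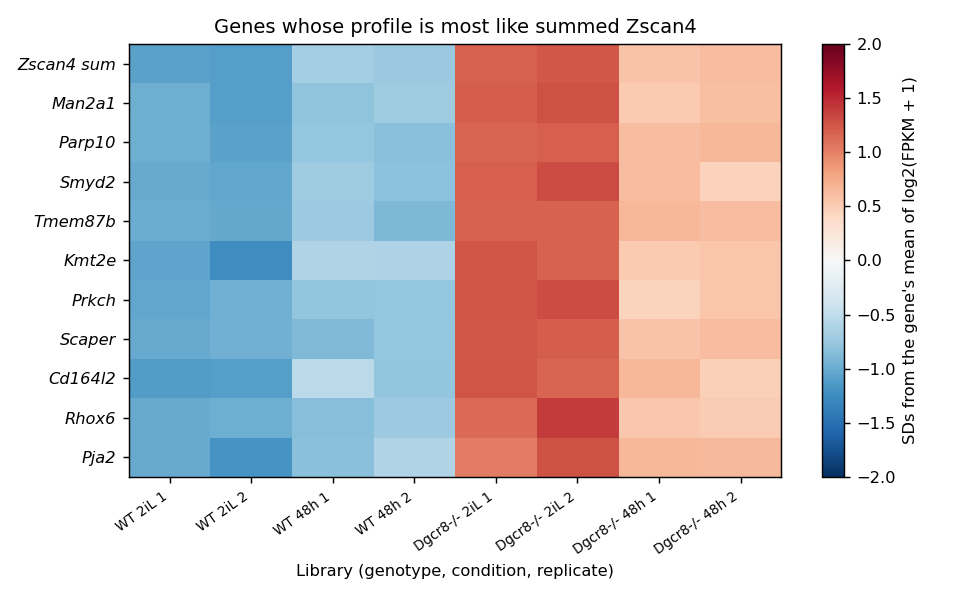
Profiles of the Zscan4 sum and of the 10 most similar genes over the 8 libraries, as SDs from each gene's mean of log2(FPKM + 1). Each row is highest in Dgcr8-/- cells in 2iL, intermediate in Dgcr8-/- cells at 48 h and low in WT cells.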

How the data were processed

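RNA-seq of 8 libraries was analysed, and 8 small RNA libraries of the series were not used here. The authors deposited FPKM values per Ensembl gene, 1 column per library; STAR 2.5.0, Cufflinks 2.2.1 and build mm10 are named in the submitters' processing notes. No source used here gives the annotation or the handling of reads with several matches. The sources conflict on the input: the labels name polyA RNA and dUTP libraries, and the series design total RNA, which bears on RNAs without a polyA tail such as Terc. Symbols were matched for 40124 of 41258 entries, and 56 repeated identifiers were kept apart. Relative depth came from low values (all below 0.15 FPKM), whose ratios between libraries cluster at 1 step.

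log2(FPKM + 1) was fitted with limma 3.58.1 (R 4.3.3; 4 group means, intensity trend, 4 residual and 3.11 prior degrees of freedom) for 13172 genes that reached 1 FPKM in 2 or more libraries. Calls are Benjamini-Hochberg adjusted p below 0.05 over all genes tested. The code was tested on simulated data. Alternatives were a pseudocount of 0.1, no filter, a mean of at least 5 FPKM, median-ratio and quantile scaling, no trend, the replicate number as a block, and leaving out each library. For Zfp352 and Tcstv1, no filter was also combined with a pseudocount of 0.1 and with leaving out each library, chosen after seeing the data. All members were named; of each other list, at most 4 tested genes with the largest 2iL difference; and the 10 genes most like the Zscan4 sum. The members and lists were chosen with earlier results of these data known. Sequences and positions are from RefSeq (GRCm38.p6).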

Additional observations from a re-analysis of the deposited data

Results flagged for a closer look

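The change between 2iL and 48 h differed between genotypes, by limma's interaction term on log2(FPKM + 1), for Zscan4c (−0.70), Zscan4d (−0.86), Zscan4f (−1.12) and Tcstv3 (−0.56). In each case the Dgcr8-/- libraries were lower at 48 h than in 2iL and the WT libraries were higher. The Tcstv3 term was lost in 8 of 14 alternatives (adjusted p from 0.018 to 0.125 over all of them).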

How the results depend on the processing

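The numbers of genes called stayed within 1.5 times in every alternative but one: for the interaction, 3612 genes were called among those with a mean of at least 5 FPKM against 5641, with fewer genes tested (8588). Leaving out 1 library gave 6083 to 7688 genes for WT cells at 48 h (7440 with all), 4902 to 6190 for Dgcr8-/- cells (6367), 7321 to 8152 between genotypes in 2iL (8348), 8367 to 9584 at 48 h (9456) and 4481 to 5374 for the interaction. A library left out leaves 1 in its group, which is then assumed to vary like the others. Same-numbered libraries did not deviate together (correlations from −0.153 to 0.180), so the numbers were not taken as pairs. With the replicate block 7222, 6102, 8195, 9323 and 5364 genes were called. The block ended the calls of Zscan4d in WT cells and of the Tcstv3 interaction and changed no other call of the 4 tested members. With the filter at a mean of 5 FPKM none of the 6 genes was tested, and that setting is not among the 14 counted below. For Zfp352 and Tcstv1, which lie outside the filtered fit, quantile scaling, the block, the trend and the stricter filter gave no value. The calls of Zscan4c, Zscan4d, Zscan4f and Tcstv3 between genotypes, in both conditions, held in all 14 alternatives, as did the falls of the 3 Zscan4 genes in Dgcr8-/- cells. Without intensity trend, with median-ratio or quantile scaling, or without Dgcr8-/- 2iL replicate 1, the fall of Tcstv3 in Dgcr8-/- cells was called (adjusted p from 0.014 to 0.232 over all alternatives). Zfp352 and Tcstv1 rest on values near those of single fragments, as do the WT values of Tcstv3. A ratio of means is imprecise for all 3 of these genes.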
